A study of Mus musculus with 7 samples.

Results

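Fatty acid and triglyceride synthesis was examined in carotid artery through 10 genes, Acly, Acaca, Fasn, Elovl6, Scd1, Scd2, Gpam, Dgat1, Dgat2 and Srebf1. The members were all probe sets of the Affymetrix Mouse 430 2.0 array annotated to exactly 1 of these symbols, which gave 24 of 45101 probe sets. Of these 24, 21 had a mean signal over the arrays above 23.6 and were tested, and each of the 10 genes kept at least 1 of them. RNA came from carotid arteries of ApoE-/+ mice, so all offspring carried 1 null allele of the gene for apolipoprotein E, a protein that clears lipoproteins from plasma. In 4 samples, called ApoE-null mother here, a hypercholesterolemic ApoE-/- dam had been crossed with a wild-type sire. In the other 3 samples, called wild-type mother, a normocholesterolemic wild-type dam had been crossed with an ApoE-/- sire. Both parents changed places between the crosses, so maternal and paternal contributions cannot be told apart. The labels give no strain, sex, age or diet, and do not say whether each array was a separate animal, so the p-values measure the spread between these samples.

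Cells make fatty acids from citrate in a short chain of steps. ATP citrate lyase (Acly) releases acetyl-CoA, acetyl-CoA carboxylase (Acaca) turns it into malonyl-CoA, and fatty acid synthase (Fasn) builds palmitate from both. Elovl6 lengthens palmitate, and the stearoyl-CoA desaturases (Scd1, Scd2) make monounsaturated fatty acids from the products. Gpam, a mitochondrial glycerol-3-phosphate acyltransferase, starts the assembly of glycerolipids, and the diacylglycerol acyltransferases Dgat1 and Dgat2 complete triglycerides. Srebf1 encodes SREBP-1, a transcription factor that induces many of these enzymes. The pathway is most active in liver and fat, and fat surrounds arteries.

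Smooth muscle markers matched the labelled tissue, with 6 of 6 above background on every array and summed signals of 24299.9 to 30087 with an ApoE-null mother and 23437 to 30859 with a wild-type mother. Markers of fat were also present. Summed signals of 6 white adipocyte markers were 13891 to 17790.3 with an ApoE-null mother and 8356 to 19149.9 with a wild-type mother, and 5 of 6 were above background on every array. For 8 brown adipocyte markers, all above background on every array, the sums were 8201 to 13025 with an ApoE-null mother and 2465 to 10582 with a wild-type mother. In the brown list, Ucp1, the uncoupling protein of brown fat, was at 4177 ± 839.8 (SD, n = 4) with an ApoE-null mother, against 1388 ± 939.9 (SD, n = 3) in the wild-type mother group (limma, adjusted p = 0.429). Its groups did not overlap, as for 8.58% of all genes, while those of every other brown marker overlapped. In the white list, Fabp4, a fatty acid carrier, was at 8395 ± 1074 with an ApoE-null mother and 6796 ± 3187 with a wild-type mother, and Lep was at background on 1 array. Among the arrays, 2 stood apart. Wild-type mother 3 had the lowest sums of both fat lists. Wild-type mother 2 had the highest white adipocyte sum, a skeletal muscle sum of 2371 where the other arrays had 139.8 to 249.6, the highest ratio of 3 prime to 5 prime Gapdh signal (7.80 against 5.03 to 6.56), and an Xist signal of 41.2 where the others had 5174 to 5931. Xist is made from the inactive X chromosome of female mice, so a low signal is what RNA from a male would give. The labels give no sex, and its part in the values of wild-type mother 2 was not tested. In RNA from whole tissue, fewer cells of a type and less RNA per cell cannot be told apart.

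None of the 21 tested probe sets passed between the crosses in limma (adjusted p = 0.458 to 0.977), where 1 of 27027 probe sets passed in all, or 0.0037%. At an unadjusted p under 0.05 there were 4 of 21 (19.0%), against 8.25% of all probe sets. The groups did not overlap for 3 of 21 (14.3%), against 8.02% of all probe sets, and of the 3 there were 2 higher and 1 lower with an ApoE-null mother, against 4.01% of all probe sets in each direction. With each gene read from its strongest kept probe set, 7 genes had positive and 3 negative log2 differences (ApoE-null mother minus wild-type mother), from -0.38 for Scd2 to 0.70 for Gpam. Their median was 0.11, and that of all 12713 genes was -0.01. Without wild-type mother 2 the median of the 10 genes was 0.31. Dropping wild-type mother 3 instead gave -0.14, and dropping both gave 0.06.

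**Figure D1:**
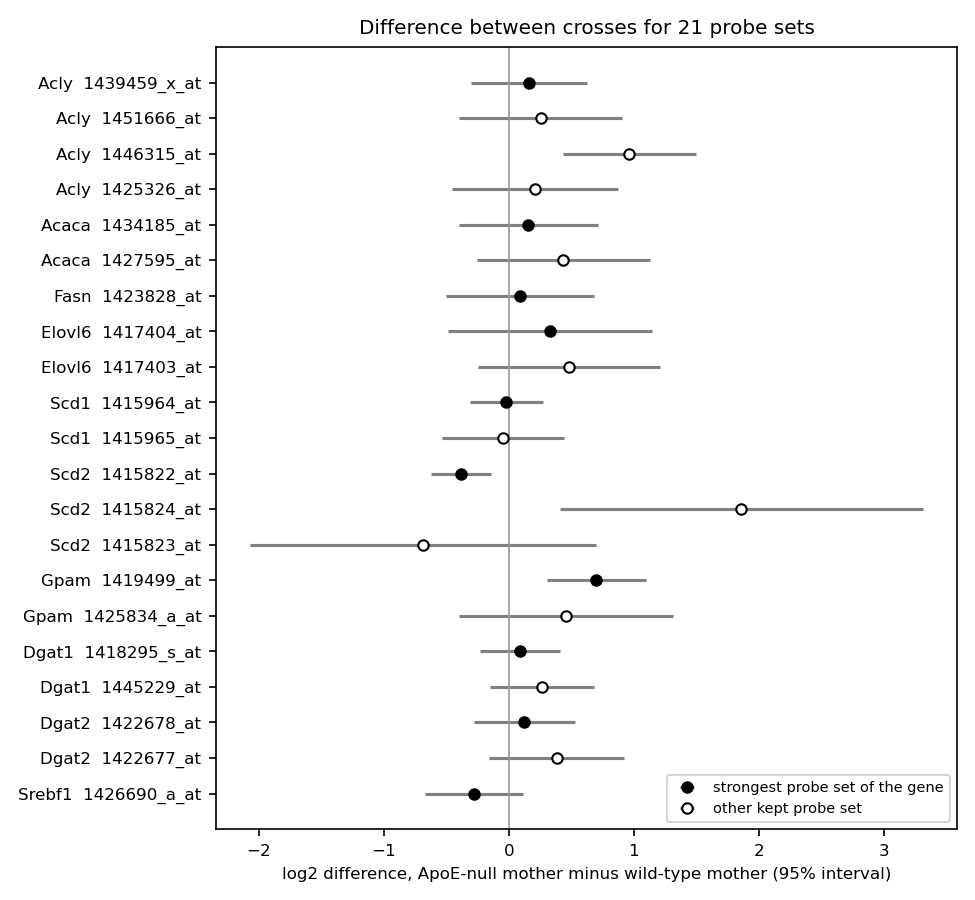
Log2 difference between crosses (horizontal axis, ApoE-null mother over wild-type mother) and 95% intervals for the 21 tested probe sets, grouped by gene; filled points mark the strongest probe set of each gene. The intervals of 4 probe sets leave out 0, those of Acly 1446315_at, Scd2 1415822_at, Scd2 1415824_at and Gpam 1419499_at, and those of Scd2 lie on opposite sides.

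Acly, which supplies the acetyl-CoA, had signals of 4363.5, 4384.3, 3271.3 and 3725.5 with an ApoE-null mother, against 3230.9, 5137.5 and 2560.2 with a wild-type mother. A signal is a linear brightness that can be compared between arrays for the same probe set but not between probe sets. The wild-type mother group held both the highest and the lowest array, and the groups overlapped. Means were 3936 ± 538 (SD, n = 4) and 3643 ± 1337 (SD, n = 3), which is 0.16 ± 0.21 on the log2 scale (difference ± SE; limma, adjusted p = 0.855). This probe set (1439459_x_at) carries the suffix that Affymetrix gives to sets open to cross-hybridisation. The next strongest, 1451666_at, does not, and had a log2 difference of 0.25 and the same order of arrays at both ends.

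Another, weak Acly probe set, 1446315_at, behaved otherwise. Its signals were 85.3, 54.8, 66.1 and 73.6 with an ApoE-null mother and 35.9, 39.4 and 28.8 with a wild-type mother, so the groups did not overlap. Their log2 difference of 0.96 ± 0.24 (SE) did not pass (limma, adjusted p = 0.458). The fourth tested set, 1425326_at, overlapped between the groups at signals of 29.5 to 56.5 with an ApoE-null mother and 29.5 to 51.7 with a wild-type mother. Another 2 Acly probe sets fell under the filter, at 1.5 to 19.8 with an ApoE-null mother and 2.2 to 7.3 with a wild-type mother, near the level of bacterial control probe sets.

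Acaca, which encodes the enzyme that commits acetyl-CoA to fatty acid synthesis, had signals of 1768.3, 1572.8, 1195.6 and 1749.5 with an ApoE-null mother, against 1468.1, 2096.8 and 876.2 with a wild-type mother. Again the extremes were wild-type mother 2 at the top and wild-type mother 3 at the bottom, with the ApoE-null mother arrays between them. On the log2 scale they differed by 0.16, within 95% limits of -0.40 and 0.72 (limma, adjusted p = 0.890). Its second probe set, 1427595_at, was weak, at 26.7 to 37.7 with an ApoE-null mother and 19.5 to 29.4 with a wild-type mother.

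Fasn, measured by 1 probe set, had 4173.2, 4035.0, 3055.4 and 4856.8 with an ApoE-null mother and 3857.0, 5948.0 and 2274.6 with a wild-type mother. The group means lay close together, at 4030.1 ± 743 (SD, n = 4) for the ApoE-null mother and 4027 ± 1843 (SD, n = 3) for the wild-type mother. The log2 difference of 0.09 had a 95% interval of -0.50 to 0.68 (limma, adjusted p = 0.947). Leaving out the highest array, wild-type mother 2, gave 0.42, and leaving out the lowest, wild-type mother 3, gave -0.27.

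**Figure D2:**
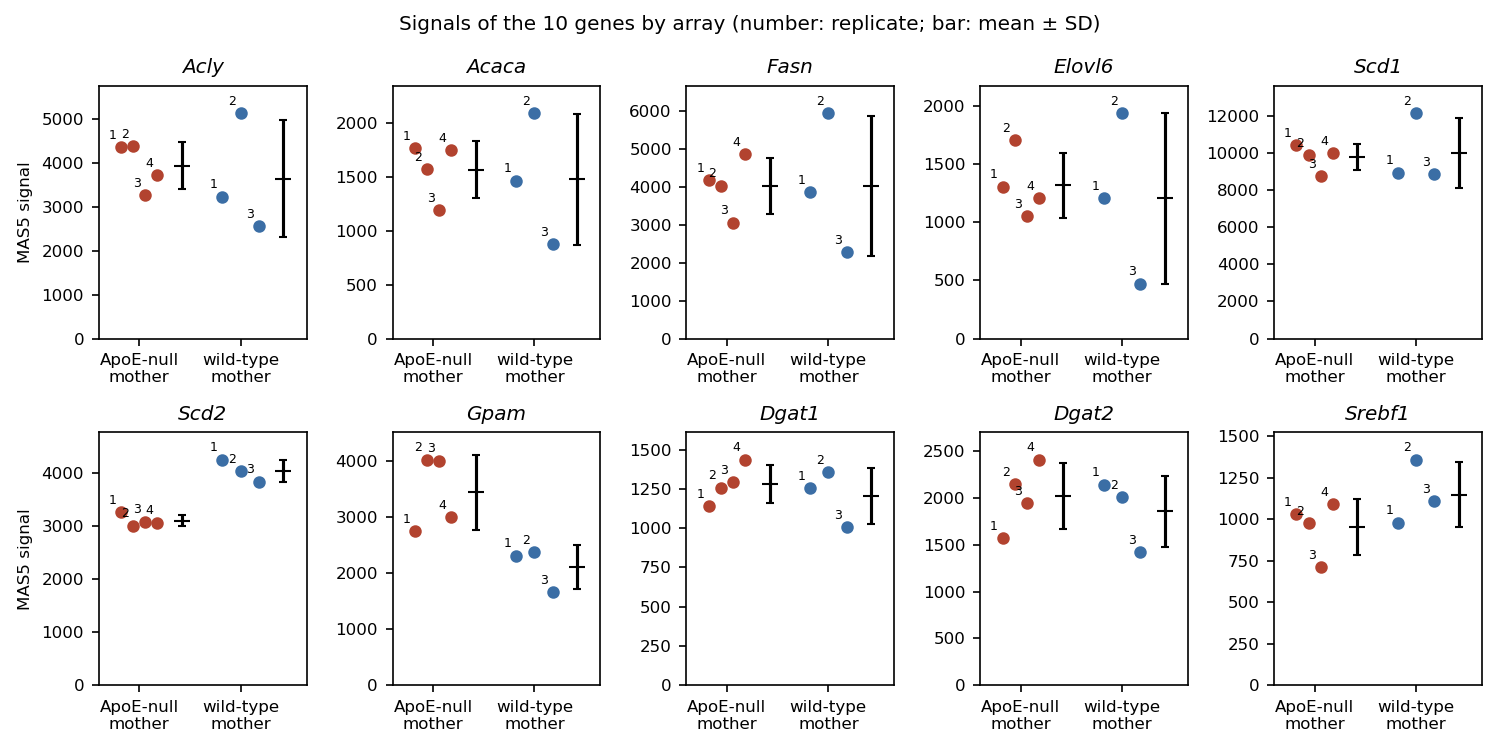
MAS5 signal (vertical axes, linear, from 0) of the strongest probe set of each of the 10 genes, with 1 point per array, numbered by replicate, and the mean ± SD beside each group; ApoE-null mother has 4 arrays and wild-type mother 3. The groups are separate for Scd2 and Gpam, and for Acly, Acaca, Fasn and Elovl6 wild-type mother 2 is the highest array and wild-type mother 3 the lowest.

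Elovl6, which lengthens palmitate to stearate, had the widest range on the log2 scale among the strongest probe sets of the 10 genes. Signals were 1307.9, 1709.5, 1054.0 and 1210.2 with an ApoE-null mother, against 1206.4, 1941.2 and 472.6 with a wild-type mother. Wild-type mother 3 lay below all other arrays, with a deviation of -1.31 log2 units from the mean of the 7. Between crosses the log2 difference of 0.33 was smaller than its standard error of 0.37 (limma, adjusted p = 0.835). Leaving out wild-type mother 2 gave 0.78, and leaving out wild-type mother 3 gave -0.24. A second probe set annotated to the same accession, 1417403_at, was likewise lowest on wild-type mother 3, at 269.7. Its highest array was ApoE-null mother 2, at 1012.7, against 853.8 on wild-type mother 2. The last, 1442656_at, fell under the filter at signals of 3.0 to 32.1 with an ApoE-null mother and 11.8 to 16.1 with a wild-type mother.

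Scd1, the main desaturase of liver and fat, had 10433.6, 9899.5, 8764.0 and 10011.9 with an ApoE-null mother and 8954.0, 12161.6 and 8855.7 with a wild-type mother. The groups overlapped, with wild-type mother 2 again highest. A log2 difference of -0.02 had 95% limits of -0.31 and 0.27 (limma, adjusted p = 0.977). Its sign turned with the scaling, to 0.024 after quantile normalization and 0.0059 after 75th percentile scaling, and to 0.13 without wild-type mother 2. The second Scd1 probe set, 1415965_at, gave -0.05.

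Scd2, the desaturase that predominates outside liver and is abundant in brain and nerve, had 3 probe sets that did not give the same picture. The strongest, 1415822_at, had 3257.6, 3008.2, 3080.7 and 3066.4 with an ApoE-null mother, against 4256.4, 4034.5 and 3838.0 with a wild-type mother. Every ApoE-null mother array lay below every wild-type mother array, and the spread was small, with means of 3103 ± 108 (SD, n = 4) and 4043 ± 209 (SD, n = 3). This log2 difference of -0.38 ± 0.11 (SE), with 95% limits of -0.62 and -0.14, did not pass (limma, adjusted p = 0.480). It stayed between -0.42 and -0.34 when each array was left out.

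The second Scd2 probe set, 1415824_at, went the other way. Its signals were 656.7, 419.9, 436.6 and 883.8 with an ApoE-null mother, against 53.8, 97.7 and 703.1 with a wild-type mother. The groups overlapped through wild-type mother 3 alone, and the log2 difference was 1.86 ± 0.66 (SE; limma, adjusted p = 0.550). Without that array it was 2.94 and passed (limma, adjusted p = 0.0180), the only one of the 21 probe sets to do so when an array was left out. Without wild-type mother 1 it was 1.11 and without wild-type mother 2 it was 1.53, and neither passed (limma, adjusted p = 0.587 and 0.570). The weakest set, 1415823_at, had signals of 3.8 to 44.9 with an ApoE-null mother and 28.8 to 48.6 with a wild-type mother. All 3 sets are annotated to the same accession, and their mean on the log2 scale gave 0.26, opposite in sign to the strongest set, so no direction is given for Scd2 as a gene. Markers of Schwann cells, which make the myelin of peripheral nerve, had a probe set for 5 of 8. Of these, 3 were above background on every array, while Mag and Sox10 were at background on 2 arrays each. Their summed signals were 4116.5 to 6777 with an ApoE-null mother and 5349 to 9105 with a wild-type mother, with Pmp22 the largest part. Log2 differences were negative for all 4 tested markers, and none passed in limma. They were -2.05 for Sox10, -1.22 for Mbp, -1.04 for Cnp and -0.16 for Pmp22. Of the 4, only Cnp had groups that did not overlap, as for 8.58% of all genes. With the score of the 4 tested Schwann cell markers (without Mag) as covariate, the log2 difference of 1415822_at was -0.37. The part of nerve content in the Scd2 values was not tested.

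**Figure D3:**
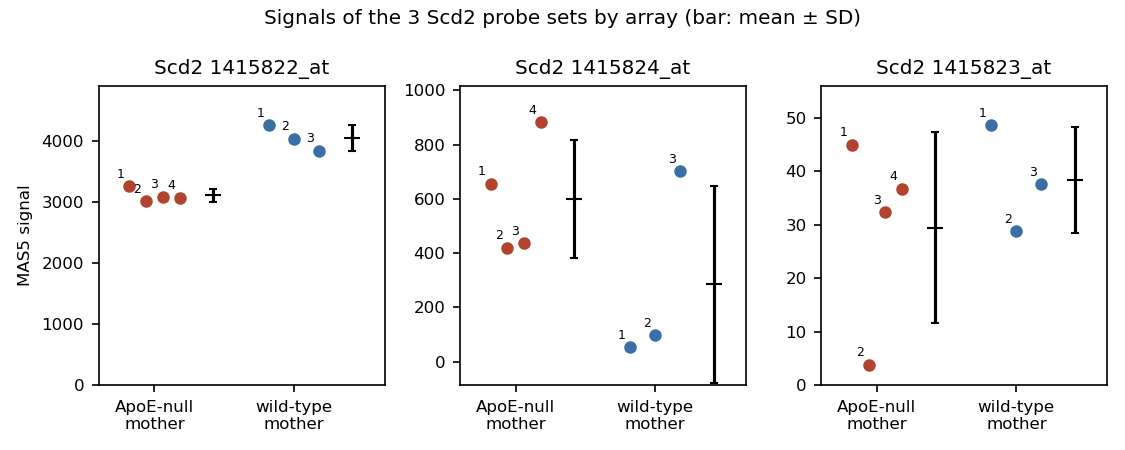
MAS5 signal (vertical axes, linear) of the 3 Scd2 probe sets, with 1 point per array and the mean ± SD beside each group, ApoE-null mother (n = 4) left and wild-type mother (n = 3) right. The strongest set is lower on all ApoE-null mother arrays, while 1415824_at is higher on them than on wild-type mother 1 and 2.

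Gpam, which starts glycerolipid assembly, had the largest log2 difference among the strongest probe sets. Signals were 2738.5, 4021.3, 3999.7 and 2988.9 with an ApoE-null mother, against 2307.0, 2364.8 and 1661.3 with a wild-type mother. All ApoE-null mother arrays lay above all wild-type mother arrays. Means were 3437 ± 670.0 (SD, n = 4) and 2111 ± 391 (SD, n = 3), a 1.62-fold difference on the log2(signal + 2) scale. In log2 units this was 0.70 ± 0.18 (SE) with 95% limits of 0.30 and 1.09, short of the threshold once adjusted over the whole array (limma, adjusted p = 0.459). Leaving out single arrays gave 0.54 to 0.80. A weak second probe set, 1425834_a_at, had a log2 difference of 0.46 with overlapping groups.

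Log2 differences were also positive for 8 of 8 brown adipocyte markers, none of which passed in limma. Its sums were 8201, 10745, 13025 and 10201 on the ApoE-null mother arrays, and 6176, 10582 and 2465 on those of the wild-type mother group. ApoE-null mother 2 and 3, highest for Gpam, also had the highest brown sums, and wild-type mother 3, lowest for Gpam, had the lowest. Wild-type mother 2 had a brown sum above those of ApoE-null mother 1 and 4 and a Gpam signal below both. With the brown adipocyte score as covariate the log2 difference of Gpam was 0.44, and with the white adipocyte score 0.69. The brown score was chosen as covariate after seeing the data. The part of fat content in the Gpam values was not tested.

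Dgat1 had 1140.0, 1259.2, 1293.7 and 1438.8 with an ApoE-null mother, against 1255.7, 1357.1 and 1009.4 with a wild-type mother. Dgat2 had 1571.7, 2152.1, 1945.8 and 2412.0 with an ApoE-null mother, against 2142.0, 2008.6 and 1422.0 with a wild-type mother. These acyltransferases, unrelated in sequence, catalyse the same last step, and both were lowest on wild-type mother 3 and highest on ApoE-null mother 4. Log2 differences were 0.09 for Dgat1, with an interval of -0.23 to 0.41, and 0.13 for Dgat2, with an interval of -0.27 to 0.53 (limma, adjusted p = 0.886 and 0.876). Leaving out wild-type mother 3 turned them to -0.030 and -0.055. Their second probe sets, 1445229_at for Dgat1 and 1422677_at for Dgat2, had log2 differences of 0.27 and 0.38, also with overlap. The strongest Dgat1 set carries the suffix for sequence shared between transcripts.

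Srebf1, the regulator, had 1029.7, 974.6, 711.3 and 1092.1 with an ApoE-null mother, against 979.7, 1360.1 and 1107.6 with a wild-type mother. The groups overlapped, and wild-type mother 3, lowest for 7 of the 10 genes, was here the second highest array, while wild-type mother 2 was the highest, as for Acly, Acaca, Fasn and Elovl6. Over the 7 arrays, r was 0.393 with Acly, 0.426 with Acaca, 0.493 with Fasn, 0.176 with Elovl6 and 0.726 with Scd1. None of these passed over the 45 pairs of genes. Without wild-type mother 2 and 3, r was 0.949 with Acaca and 0.959 with Fasn, but 0.507 with Acly and 0.466 with Elovl6. With Scd1 it was -0.097 without ApoE-null mother 3 and wild-type mother 2. The values with arrays left out were not tested, and ApoE-null mother 3 was the lowest array for Srebf1. The Srebf1 log2 difference of -0.28 ± 0.18 (SE) did not pass (limma, adjusted p = 0.706). Leaving out wild-type mother 2 gave -0.15, and leaving out wild-type mother 2 and 3 gave -0.060.

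**Figure D4:**
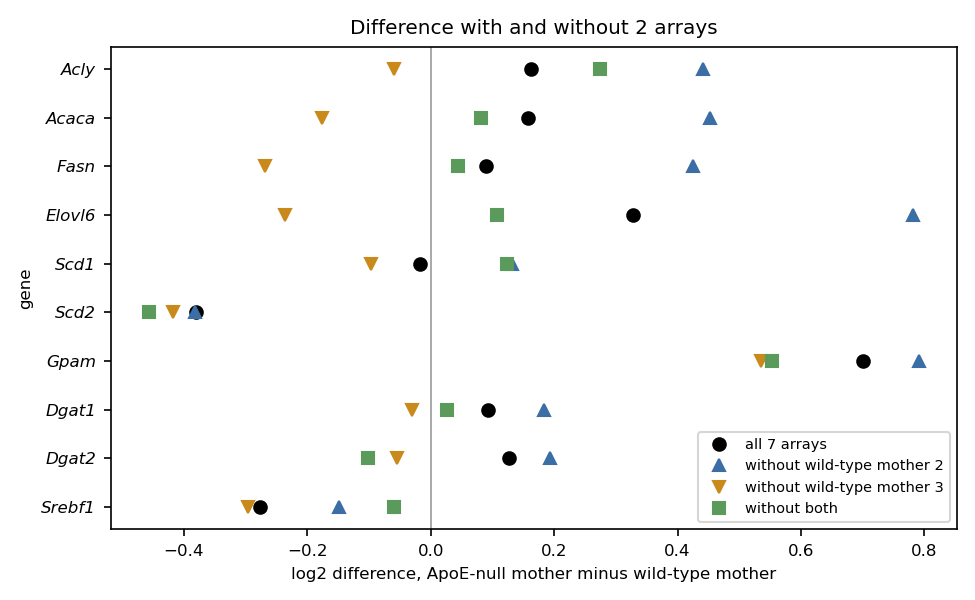
Log2 difference between crosses (horizontal axis, ApoE-null mother minus wild-type mother) of the strongest probe set of each of the 10 genes. Settings are all 7 arrays, then leaving out wild-type mother 2, wild-type mother 3 or both. Scd2 stays below 0 and Gpam above 0 in all 4 settings, and Acly, Acaca, Fasn, Elovl6, Dgat1 and Dgat2 turn negative without wild-type mother 3.

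On their strongest probe sets, Acly, Acaca, Fasn and Elovl6 had the same highest array, wild-type mother 2, and the same lowest, wild-type mother 3. They differed in the order of the arrays between. Scd1 shared the highest array and was lowest on ApoE-null mother 3. Other probe sets could differ, as for Elovl6 1417403_at and the weak Acaca 1427595_at, both highest on ApoE-null mother 2. Averaged over Acly, Acaca, Fasn, Elovl6 and Scd1, deviations from the mean of the 7 arrays were 0.17, 0.19, -0.23 and 0.13 log2 units with an ApoE-null mother, and -0.06, 0.52 and -0.71 with a wild-type mother. The wild-type mother group spanned both ends and enclosed the other group. Wild-type mother 3 was the lowest array for 7 of the 10 genes, against 15.3% of all genes, and wild-type mother 2 the highest for 6, against 18.8%. With the brown adipocyte score as covariate the log2 differences of Acly, Acaca, Fasn and Elovl6 were -0.12, -0.21, -0.34 and -0.35. That covariate was chosen after seeing the data. Spread between arrays on the log2 scale was wider in the wild-type mother group for 8 of the 10 genes, against 55.9% of all genes. Median SDs were 0.26 with an ApoE-null mother and 0.30 with a wild-type mother for the 10 genes, and 0.23 and 0.25 for all genes.

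**Figure D5:**
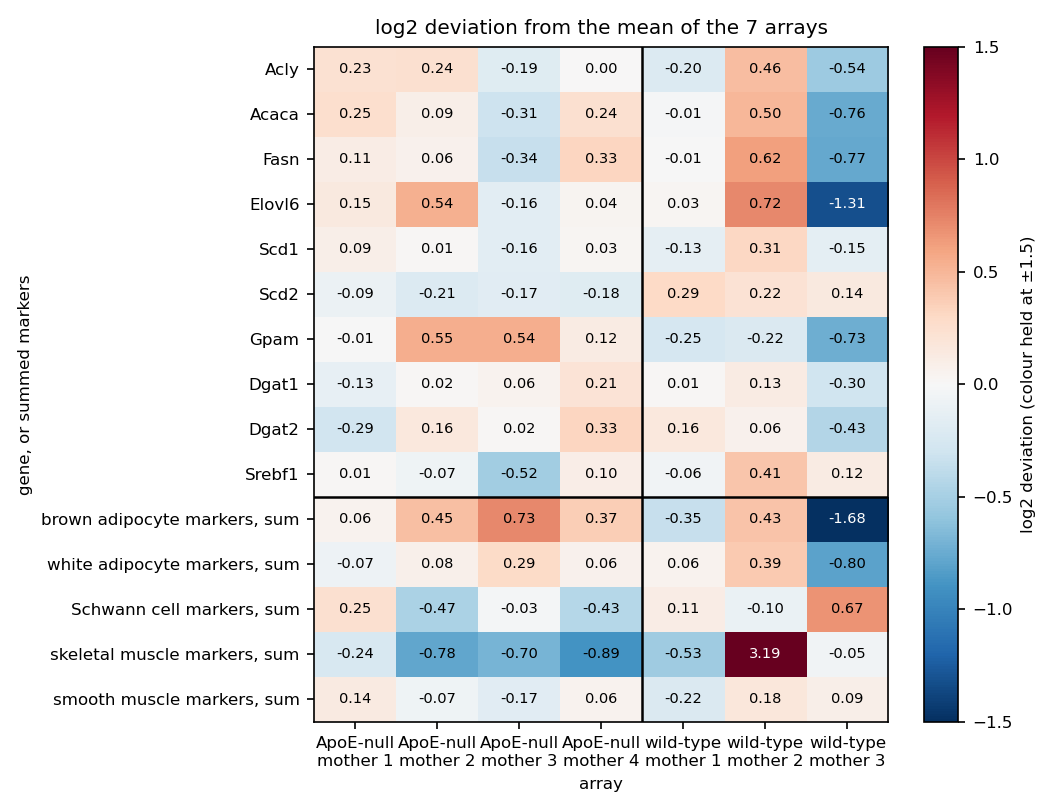
Log2 deviation of each gene (upper 10 rows) and of the summed signals of 5 marker lists (lower rows) from the mean of the 7 arrays (columns), red above and blue below it. Wild-type mother 3 is low for most of the genes and for both fat lists, and wild-type mother 2 is high for Acly, Acaca, Fasn and Elovl6 and for skeletal muscle markers.

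Over the 7 arrays, Pearson's r was 0.983 between Acaca and Fasn (exact permutation p = 0.000397, adjusted p = 0.0179 over 45 pairs of genes; Spearman's rho = 0.964, exact permutation p = 0.00278, adjusted p = 0.0417). Without wild-type mother 2 and 3, the arrays farthest from the median of Acaca, r was 0.937. Acly and Elovl6 had r = 0.918 (exact permutation p = 0.000794, adjusted p = 0.0179) and the same rho and rho p-values, and r = 0.791 without the same arrays. These were the 2 of 45 pairs that passed for r. For rho, Acaca and Scd1 also passed (rho = 0.964, exact permutation p = 0.00278, adjusted p = 0.0417), with r = 0.827. Among 12713 genes, 31 had a higher r with Acly than Elovl6 had, and 33 a higher r with Elovl6 than Acly had. The same counts were 2 for Acaca, whose nearest member was Fasn, and 0 for Fasn. The r of 0.887 between Fasn and Elovl6 was 0.391 without wild-type mother 2 and 3, so that relation rests on those arrays. All pairs share the same 7 arrays. Within a single cross there are too few arrays for a correlation.

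The promoter entries of Acly, Acaca, Fasn and Elovl6 are shown because these 4 genes had the same highest and lowest array on their strongest probe sets. RefSeq promoter entries (GRCm38.p6, 250 bases before to 50 after a start) matched 6 of the 10 genes, with 9 entries. Scd1, Scd2, Dgat1 and Dgat2 had none. Both strands were searched for the letters TCACNCCAC (a sterol regulatory element, N being any base), CCAAT (the box bound by NF-Y), CACGTG (an E-box) and GGGCGG (a GC box), which capitals mark below, 5′ to 3′ on the strand of the gene.

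Fasn, chr11:120824498-120824797, minus strand: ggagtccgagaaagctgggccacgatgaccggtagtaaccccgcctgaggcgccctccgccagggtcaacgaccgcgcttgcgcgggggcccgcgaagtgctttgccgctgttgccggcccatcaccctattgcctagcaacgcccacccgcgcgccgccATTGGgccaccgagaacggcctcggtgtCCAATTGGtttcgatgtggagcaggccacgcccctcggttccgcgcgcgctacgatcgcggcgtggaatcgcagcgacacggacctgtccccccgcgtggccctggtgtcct
Acly, chr11:100527951-100528250, minus strand: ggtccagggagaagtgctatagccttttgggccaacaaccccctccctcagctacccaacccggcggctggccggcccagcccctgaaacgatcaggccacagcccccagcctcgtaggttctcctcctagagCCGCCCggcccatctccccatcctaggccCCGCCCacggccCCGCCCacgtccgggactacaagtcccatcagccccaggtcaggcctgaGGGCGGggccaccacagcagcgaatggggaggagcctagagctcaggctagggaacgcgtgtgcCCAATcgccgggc
Acaca, chr11:84195188-84195487, plus strand: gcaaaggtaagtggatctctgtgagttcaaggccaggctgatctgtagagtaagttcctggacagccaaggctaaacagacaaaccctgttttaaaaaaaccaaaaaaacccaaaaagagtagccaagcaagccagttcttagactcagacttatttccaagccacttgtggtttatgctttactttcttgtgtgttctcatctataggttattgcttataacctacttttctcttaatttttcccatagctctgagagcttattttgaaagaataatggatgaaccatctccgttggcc
Elovl6, chr3:129532136-129532435, plus strand: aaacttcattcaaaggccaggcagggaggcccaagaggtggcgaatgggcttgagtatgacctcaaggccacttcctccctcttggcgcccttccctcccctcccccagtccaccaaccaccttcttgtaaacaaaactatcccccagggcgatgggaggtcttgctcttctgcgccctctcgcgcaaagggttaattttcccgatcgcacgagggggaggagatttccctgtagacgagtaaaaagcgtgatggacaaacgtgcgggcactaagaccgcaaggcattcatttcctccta

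The Fasn window held CCAAT 3 times in either orientation, at positions 161, 189 and 192 counted from its 5′ end, and the last pair of matches overlap by 2 bases. The Acly window held CCAAT at position 288 and the GC box 4 times. The windows of the Acaca and Elovl6 entries held none of the 4 motifs. Whether the Acaca entry lies at a start of transcription was not tested, so no absence is read for the Acaca promoter itself. Across all member entries, that of Acaca among them, CCAAT was in 5 of 9, against 37.4% of 32851 promoters. The GC box was in 4 of 9, against 35.7%. The sterol regulatory element and the E-box were in 0 of 9, against 1.24% and 7.15% of all promoters. A match is a run of letters and not a measured binding site.

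Other enzymes of fatty acid synthesis, elongation, desaturation and activation were read from a list of 31 genes, of which 25 were tested. Log2 differences were positive for 13 and negative for 12, with a median of 0.01, and 0 passed in limma, while 5 had an unadjusted p under 0.05 (1 of 12713 genes, 0.00787%, passed in all, and 8.65% had an unadjusted p under 0.05). The groups did not overlap for 2 of 25, against 8.58% of all genes. Acsl5, which activates fatty acids to acyl-CoA, had signals of 1040.5 to 1580.5 with an ApoE-null mother and 687 to 945 with a wild-type mother, a log2 difference of 0.72. Tecr, the reductase that ends each round of elongation, had 1199.6 to 1647 with an ApoE-null mother and 1835 to 2726 with a wild-type mother, a log2 difference of -0.65. Acacb, the mitochondrial form of acetyl-CoA carboxylase, and Elovl3, an elongase of brown fat, had log2 differences of 0.71 and 1.45 with overlapping groups. None of the 4 passed (limma, adjusted p = 0.458 to 0.523). Elovl3 also belongs to the brown adipocyte marker list.

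Of 14 other genes of glycerolipid assembly, 12 were tested, 8 with positive and 4 with negative log2 differences and a median of 0.10. None passed in limma, and 2 had an unadjusted p under 0.05 (16.7%, against 8.65% of all genes). Lpin1, a phosphatidate phosphatase that makes the substrate of the diacylglycerol acyltransferases, had 369 to 620 with an ApoE-null mother and 256 to 360 with a wild-type mother. That was a log2 difference of 0.76 without overlap (limma, adjusted p = 0.459). It was the 1 of 12 whose groups were separate (8.33%, against 8.58% of all genes), a share near that of all genes. Gpd1, which makes glycerol 3-phosphate, had a log2 difference of 0.97 and its lowest signal, 415, on wild-type mother 3. Agpat3 and Agpat4, acyltransferases of the step after Gpam, had log2 differences of 0.28 and -0.19.

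Among 23 regulators of lipogenesis, 22 were tested, with 12 positive and 10 negative log2 differences and a median of 0.07. None passed in limma, and 2 had an unadjusted p under 0.05 (9.09%, against 8.65% of all genes). The groups were separate for 2 of 22 (9.09%), against 8.58% of all genes, so both shares were near those of all genes. Scap, which escorts SREBP proteins out of the endoplasmic reticulum, had signals of 247.5 to 299.8 with an ApoE-null mother and 337 to 392 with a wild-type mother, a log2 difference of -0.38. Insig2, which holds Scap back, had 1170.3 to 1544 with an ApoE-null mother and 1009 to 1088 with a wild-type mother, a log2 difference of 0.35. Scap and Insig2 were the 2 with separate groups, and neither passed (limma, adjusted p = 0.569 and 0.584). Prkaa2, a catalytic subunit of AMP-activated kinase, and Cebpa, a transcription factor of adipocytes, had log2 differences of 0.33 and 0.41.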

How the data were processed

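Each of the 7 carotid artery samples was hybridised to 1 Affymetrix Mouse 430 2.0 array. The deposited values are linear MAS5 signal intensities per probe set, scaled by the authors with GCOS (named in the submitters' processing notes), with versions not given in the sources used here. Every array had a trimmed mean of 200.0. Detection calls were not used here. Background was taken as the highest of 27 bacterial control probe sets on each array, and 64 control probe sets were left out of tests.

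Intensities were tested as log2(signal + 2) with limma 3.58.1 in R 4.3.3 (lmFit and eBayes with an intensity trend), over the 27027 probe sets whose mean exceeded the 40th percentile (a signal of 23.6), with Benjamini-Hochberg adjustment over all of them and a threshold of 0.05. A fold on this scale understates changes at low signal. The annotation gave 34958 probe sets 1 symbol, 932 several and 9211 none. The strongest kept probe set stood for a gene. The tests were run on simulated data beforehand. With 4 against 3 arrays, 35 splits exist and the smallest exact two-sided permutation p is 0.0286. Scd2 1415822_at and Acly 1446315_at reached it, while Gpam 1419499_at had 0.0571. The labels number the arrays in separate blocks by cross, so an order of handling cannot be told apart from the cross.

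The members, pathway lists, marker lists and named genes (members, and up to 4 genes per pathway list by smallest p) were chosen with earlier results of these data known. Alternatives changed the pseudocount, filter, scaling, probe set rule, weights, covariates and arrays.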

Additional observations from a re-analysis of the deposited data

How the results depend on the processing

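The 10 genes were recomputed under 20 alternatives each, 200 values in all, and 172 kept their direction and their side of the threshold. Of these, 30 could not turn, because the filter, the intensity trend and the permutation test leave the difference as it is, and the permutation test is too coarse to pass after adjustment. None passed in limma under any of them (lowest adjusted p = 0.268, for Gpam with array weights), and 28 turned in sign. Gpam and Srebf1 kept their signs throughout, and Scd2 turned to 0.26 as the mean of its probe sets. With the Schwann cell score as covariate, log2 differences were -0.052 for Acly, -0.16 for Acaca, -0.32 for Fasn, -0.16 for Elovl6, -0.070 for Dgat1 and -0.15 for Dgat2. With the brown adipocyte score, chosen after seeing the data, they were -0.12, -0.21, -0.34, -0.35, -0.087 and -0.11 in that order, and the median of the 10 genes was -0.17. Scd1 was 0.0059 with 75th percentile scaling, 0.038 with array weights, 0.024 with quantile normalization, 0.17 with the skeletal muscle score and 0.12 without wild-type mother 2 and 3. That last setting, also chosen after seeing the data, gave -0.10 for Dgat2. Leaving out single arrays gave -0.060 to 0.44 for Acly, -0.18 to 0.45 for Acaca, -0.27 to 0.42 for Fasn, -0.24 to 0.78 for Elovl6, -0.10 to 0.13 for Scd1, -0.030 to 0.18 for Dgat1 and -0.055 to 0.24 for Dgat2. The causes were not tested.

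Of the member probe sets, 0 to 1 passed on leaving out single arrays, and 1 without wild-type mother 2 and 3, in each case Scd2 1415824_at. Of all probe sets, where 1 passed, 0 passed with the Schwann cell score, without an intensity trend and with the skeletal muscle score (1825, 2107 and 2614 at an unadjusted p under 0.05 in limma). With array weights and with quantile normalization 2 passed, and 3 passed without wild-type mother 2 and 3. Leaving out single arrays gave 0 to 18. Without wild-type mother 1 it was 18, without wild-type mother 3 it was 4, and leaving out each ApoE-null mother array gave 0 (1480 to 2600 at an unadjusted p under 0.05). The number of arrays limits the precision, and background reached a signal of 22.0 on wild-type mother 2. No paired analysis was possible because the labels name no litter or pair.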

Other observations

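The genes whose pattern over the 7 arrays was nearest to each member, among 12713 genes, were mostly outside lipid synthesis. These correlations are descriptions over arrays whose fat marker sums differ. Each nearest gene has the highest r of 12713 genes over only 7 arrays. The search alone can give so high an r, and no nearest gene was tested against that. Fasn had a member as its nearest gene, Acaca, with r = 0.983. Acaca itself was nearer to Zfp397, with r = 0.988. Acly was nearest to Ube2c (r = 0.977), Elovl6 to Gp9 (r = 0.965) and Scd1 to Endog (r = 0.984). Dgat1 and Dgat2 shared 1 nearest gene, Haus2, with r = 0.975 and 0.953. For the 2 genes whose groups were separate on the strongest probe set, the nearest member by positive r was not close. Scd2 was nearest to Tppp3 (r = 0.986), and its nearest member was Srebf1 with r = 0.490. Gpam was nearest to Commd8 (r = 0.986), and its nearest member was Elovl6 with r = 0.558. The strongest sets of Scd2 and Gpam ran opposite to each other, with r = -0.787 and rho = -0.857 (exact permutation p = 0.0387 and 0.0238, adjusted p = 0.158 and 0.119 over 45 pairs). Without wild-type mother 1 and 2, r was -0.947. The crosses do not overlap on either of these sets, so these correlations hold the difference between crosses. On the other Scd2 sets the crosses overlapped, and 1415824_at went the other way. Srebf1 was nearest to Lyl1 (r = 0.989).

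Probe sets of the same gene followed each other to different degrees. Pearson's r with the strongest set over the 7 arrays was 0.965 for Elovl6 1417403_at, 0.925 for Acly 1451666_at, 0.890 for Scd1 1415965_at and 0.869 for Dgat2 1422677_at. It was 0.417 for Acly 1446315_at, the weak set whose groups were separate, and -0.753 for Scd2 1415824_at.

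Thymocyte markers had summed signals of 445.3 to 775.7 with an ApoE-null mother and 136.3 to 232.9 with a wild-type mother, without overlap, and 2 of 7 were above background on every array. Of the 7, 5 were tested, and Ptcra and Cd8b1 fell under the filter. Log2 differences were positive for 4, at 3.64 for Rag1, 3.27 for Ccr9, 3.01 for Dntt and 1.88 for Themis. The groups did not overlap for these 4 of 5, against 8.58% of all genes. The other, Cd8a, was negative, at -0.15 with overlapping groups. None of the 5 passed in limma.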
